A study of Drosophila melanogaster with 13 samples.

Results

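The genes of the cytosolic ribosomal proteins were examined for occupancy by Pita, a zinc-finger protein of Drosophila insulators. They were chosen by symbol, as genes on the main chromosomes whose symbol begins with RpL, RpS or RpLP and a digit, together with sta, a small-subunit gene. The rule found 93 of 17684 genes listed by RefSeq for Release 6 (dm6), and all 93 are protein-coding. A gene was counted as reached by a peak list when a summit, the position of highest signal in a peak, lay within 500 bp of either end of the gene.

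Chromatin immunoprecipitation followed by sequencing was done on pooled whole adult flies aged 2 to 3 days. The PitaΔZ line (labelled pita1attP PitadeltaZ, in a y1w1118 background) carried Pita without its zinc finger-associated domain (ZAD). The PitaZ276 line (labelled pita1attP PitaZ276) carried the ZAD-like domain of human ZFP276 in its place. The Pitawt line (labelled pita1attP Pitawt) carried wild-type Pita. All 3 lines thus share the pita1attP label, and the sample titles give the Pita form of each line a FLAG tag. FLAG and Pita antibodies were used in each line, with 2 libraries for each of the 6 combinations, and the labels do not say whether these came from separate fly batches. A single preimmune library, labelled with the Pitawt genotype and IgG, brings the total to 13 libraries.

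The cytosolic ribosome has a large subunit, which forms peptide bonds, and a small subunit, which reads the messenger RNA. Its stalk proteins recruit translation factors to the large subunit. In flies the ribosomal protein genes are scattered over all chromosomes, are transcribed strongly in most cells, and loss of a single copy of many of them gives the Minute phenotype of slow growth and short bristles. Pita binds DNA through its zinc fingers, is found at domain boundaries and at many promoters, and its ZAD lets ZAD proteins pair with themselves. Expression was not measured here, and no exons, strands or sequences were used, so a site is placed by distance to the low-coordinate or high-coordinate end of a gene. In whole flies, occupancy in fewer cells and weaker occupancy per cell cannot be told apart.

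The 6 deposited peak lists held 685 PitaΔZ FLAG peaks, 797 PitaΔZ Pita peaks, 1243 PitaZ276 FLAG peaks, 492 PitaZ276 Pita peaks, 1792 Pitawt FLAG peaks and 1195 Pitawt Pita peaks. Each list joins a pair of peak lists and gives no spread between replicates, so no test between lines was made. The lists hold no read counts, so depth is unknown. All 6 lists are named as set against the same preimmune library. The fold enrichment is the authors' own value for each peak and is used only within its list. At the ribosomal protein genes the joined lists matched least in PitaZ276 Pita, with median −log10 p values of 30.4 and 907 in its first and second joined lists. They also differed in PitaZ276 FLAG (139 and 318) and Pitawt Pita (259 and 99.6). The values were closer in PitaΔZ FLAG (509 and 585), PitaΔZ Pita (355 and 337) and Pitawt FLAG (268 and 258).

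Ribosomal protein genes were reached in every list, and in each the share was above that of all genes. PitaΔZ FLAG reached 18 of the 93 genes (19.4%, exact Clopper-Pearson 95% interval 11.9 to 28.9), against 4.35% of all genes. PitaΔZ Pita reached 22 (23.7%, 15.5 to 33.6), against 4.87% of all genes. PitaZ276 FLAG reached 25 (26.9%, 18.2 to 37.1), against 6.64%, and PitaZ276 Pita reached 13 (14.0%, 7.66 to 22.7), against 2.96%. Pitawt FLAG reached 25 as well (26.9%, 18.2 to 37.1), against 8.51% of all genes, and Pitawt Pita reached 20 (21.5%, 13.7 to 31.2), against 6.01%. The intervals cover counting error only and take genes as units. Among protein-coding genes alone the background was 5.18% in PitaΔZ FLAG, 7.75% in PitaZ276 FLAG and 9.92% in Pitawt FLAG.

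**Figure D1:**
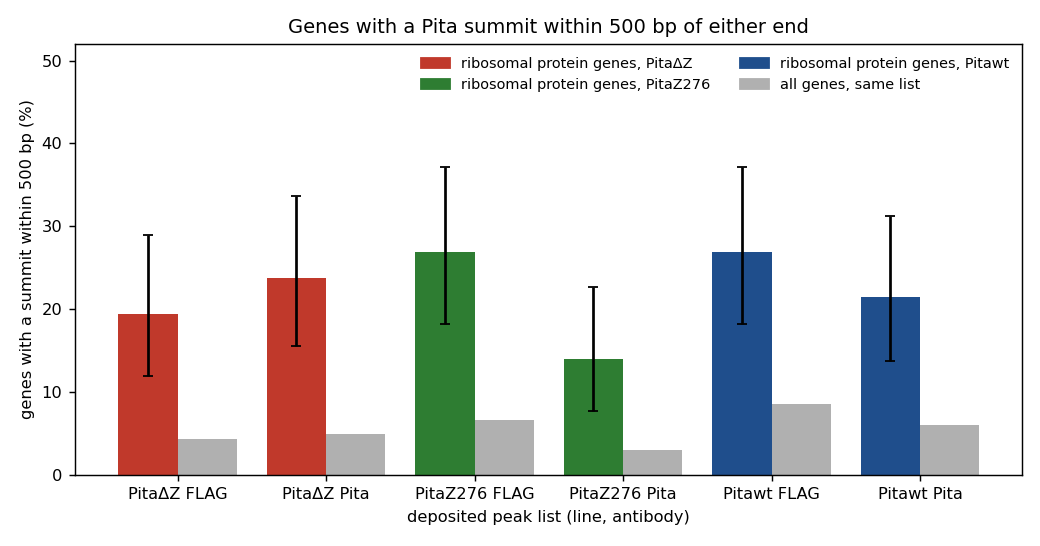
Share of genes (in %) with a Pita summit within 500 bp of either end in each deposited peak list. Coloured bars are the 93 ribosomal protein genes with exact 95% intervals and grey bars all 17684 genes; every interval lies above its grey bar, from 7.66% against 2.96% in PitaZ276 Pita to 18.2% against 8.51% in Pitawt FLAG.

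Size and crowding of the genes differ from the rest of the genome. The ribosomal protein genes had a median length of 1318 bp, against 1710 bp for all genes and 2163 bp for protein-coding genes. Another gene end lay within 500 bp for 80 of the 93 (86.0%), against 70.6% of all genes and 74.7% of protein-coding genes. The part of these values in the shares was not tested.

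In all, 28 ribosomal protein genes were reached in at least 1 list (30.1%, against 9.70% of all genes) and 65 in none. The number found in all 6 lists was 12 (12.9%, against 2.36%). Both antibodies of a line reached 18 genes in PitaΔZ (4.10% of all genes), 12 in PitaZ276 (2.84%) and 19 in Pitawt (5.72%). Either antibody reached 22 genes in PitaΔZ (5.12% of all genes), 26 in PitaZ276 (6.76%) and 26 in Pitawt (8.79%), and 21 genes were reached by either antibody in all 3 lines (4.56%). All 3 FLAG lists reached 17 genes (4.09%). Every gene reached by FLAG in PitaΔZ was also reached by the Pita antibody, and the 12 found with both antibodies in PitaZ276 are the 12 found in all lists. Large-subunit genes made up 12 of the 28, out of 50, small-subunit genes 15, out of 39, and stalk genes 1, out of 4. These groups were read from the symbol alone, and genes with -like in the symbol were counted among them. Of the 12 genes in all lists, 7 encode large-subunit and 5 small-subunit proteins.

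**Figure D2:**
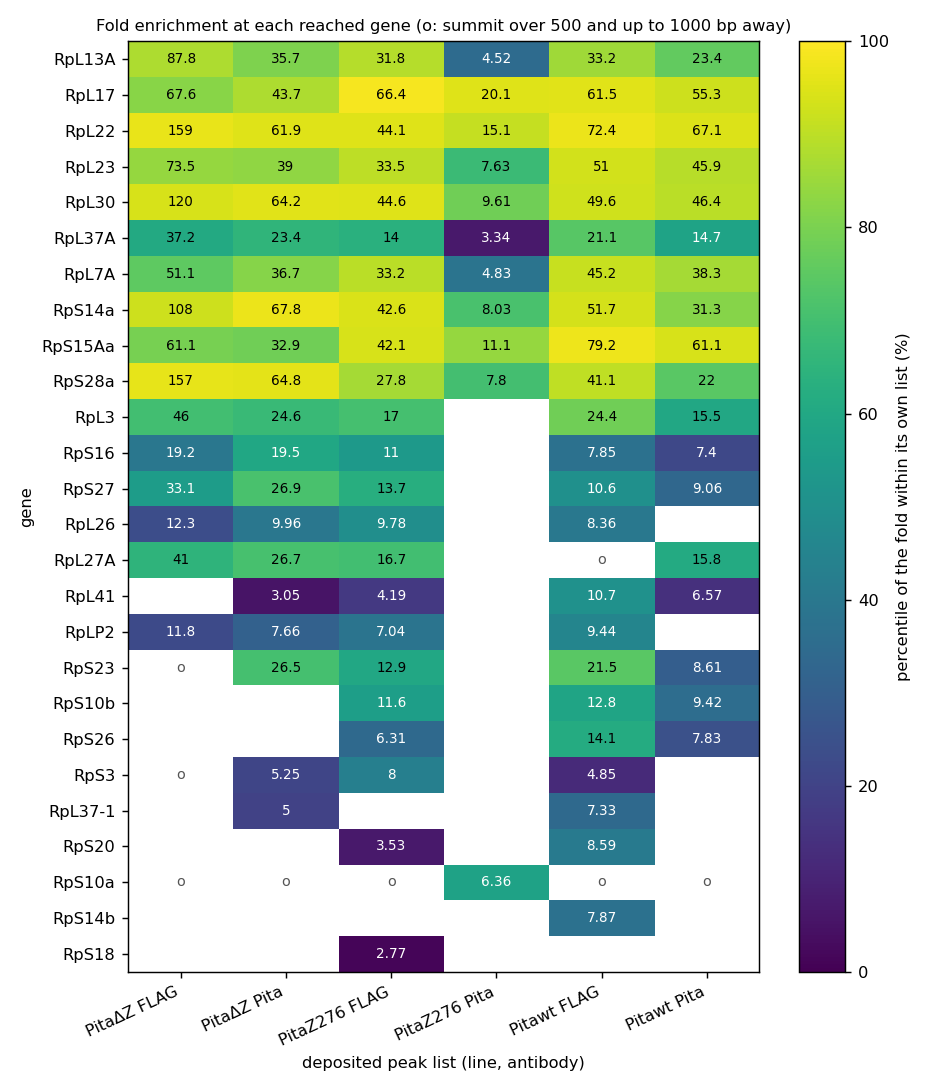
Fold enrichment (printed, authors' values) at 26 reached ribosomal protein genes in each list; colour is the percentile of the fold within its own list (%), and blank cells have no summit within 500 bp. The 10 genes at the top are reached in all 6 lists, and the circles mark summits that lie beyond 500 bp and up to 1000 bp away.

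Large-subunit genes reached in all lists included some of the strongest sites. RpL22 (X, 762560 to 765130), whose fly protein carries a histone-like N-terminal extension, had folds of 159 in PitaΔZ FLAG (rank 24 of 685), 44.1 in PitaZ276 FLAG (rank 62 of 1243) and 72.4 in Pitawt FLAG (rank 53 of 1792). With the Pita antibody its folds were 61.9 in PitaΔZ, 15.1 in PitaZ276 and 67.1 in Pitawt. It thus stood high in each list by rank. The summits lay 84 to 128 bp outside the gene, with lncRNA:CR44966 nearer, at 30 to 74 bp. RpL30 (2L, 19008031 to 19009306), a small protein near the interface of the subunits, had FLAG folds of 120 in PitaΔZ (rank 41), 44.6 in PitaZ276 (rank 60) and 49.6 in Pitawt (rank 129). Its Pita folds were 64.2 in PitaΔZ, 9.61 in PitaZ276 and 46.4 in Pitawt. No other gene end lay within 500 bp of the RpL30 summit in any list.

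RpL17 (X, 6741537 to 6744238), which lines the exit tunnel of the new protein, had a summit beyond each of its ends. The summit on the low-coordinate side (X, 6741295 to 6741311 over the 6 lists) had FLAG folds of 67.6 in PitaΔZ, 66.4 in PitaZ276 and 61.5 in Pitawt, and Pita folds of 43.7 in PitaΔZ, 20.1 in PitaZ276 and 55.3 in Pitawt. In PitaZ276 it was the strongest of all ribosomal protein sites with either antibody. The one on the high-coordinate side lay 70 to 98 bp from the gene and 135 to 163 bp from the end of tRNA:Phe-GAA-1-2. Its folds were 59.4 in PitaΔZ FLAG, 9.72 in PitaZ276 Pita and 57.8 in Pitawt FLAG. It had no entry of its own in PitaZ276 FLAG, where a single peak of 6280 bp spanned the gene and carried only the summit on the low side.

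RpL23 and RpL13A, both parts of the large-subunit core, had sites just outside their low-coordinate ends. RpL23 had FLAG folds of 73.5 in PitaΔZ, 33.5 in PitaZ276 and 51.0 in Pitawt, at 106 to 122 bp over all lists. Its Pita folds were 39.0 in PitaΔZ, 7.63 in PitaZ276 and 45.9 in Pitawt. RpL13A had FLAG folds of 87.8 in PitaΔZ, 31.8 in PitaZ276 and 33.2 in Pitawt, at 80 to 128 bp, and Pita folds of 35.7 in PitaΔZ, 4.52 in PitaZ276 and 23.4 in Pitawt. Spec2 and Dph4 also ended within 500 bp of that summit, Spec2 at 221 to 269 bp. RpL7A had summits 3 to 22 bp from its high-coordinate end, with FLAG folds of 51.1 in PitaΔZ, 33.2 in PitaZ276 and 45.2 in Pitawt, and Pita folds of 36.7 in PitaΔZ, 4.83 in PitaZ276 and 38.3 in Pitawt. RpL37A was the weakest of the 12 by fold in each list. Its FLAG folds were 37.2 in PitaΔZ, 14.0 in PitaZ276 and 21.1 in Pitawt, and its Pita folds were 23.4 in PitaΔZ, 3.34 in PitaZ276 (rank 458 of 492) and 14.7 in Pitawt. Its summits lay 2 to 68 bp from the gene end and inside asRNA:CR45305.

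Small-subunit genes reached in all lists included RpS15Aa, RpS14a and RpS28a. RpS15Aa (X, 13335637 to 13337705) had summits 12 to 35 bp outside its high-coordinate end (X, 13337717 to 13337740), with no other gene end within 500 bp. Its FLAG folds were 61.1 in PitaΔZ (rank 142 of 685), 42.1 in PitaZ276 (rank 74 of 1243) and 79.2 in Pitawt (rank 43 of 1792). Its Pita folds were 32.9 in PitaΔZ, 11.1 in PitaZ276 and 61.1 in Pitawt. In Pitawt FLAG this was the highest fold at any ribosomal protein gene.

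RpS28a (3R, 30022345 to 30022648), which encodes a protein near the exit of the messenger RNA channel, had FLAG folds of 157 in PitaΔZ (rank 26), 27.8 in PitaZ276 (rank 167) and 41.1 in Pitawt (rank 174). Its Pita folds were 64.8 in PitaΔZ, 7.80 in PitaZ276 and 22.0 in Pitawt. Its summits (3R, 30022744 to 30022774) lay 96 to 126 bp from RpS28a and 68 to 98 bp from Axn, which encodes the Axin scaffold of Wnt signalling. Ranked by −log10 p, the RpS28a site was first of 797 in PitaΔZ Pita and 11th of 685 in PitaΔZ FLAG. The 10 FLAG peaks ranked above it overlapped no peak of the PitaΔZ Pita list, so its first place rests on a list without them.

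RpS14a shared its site with a neighbour. RpS14a, in the platform of the small subunit, had FLAG folds of 108 in PitaΔZ, 42.6 in PitaZ276 and 51.7 in Pitawt, and Pita folds of 67.8 in PitaΔZ, 8.03 in PitaZ276 and 31.3 in Pitawt. Its summits lay 261 to 306 bp from RpS14a and 85 to 130 bp from Dhdds, an enzyme gene of dolichol synthesis.

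**Figure D3:**
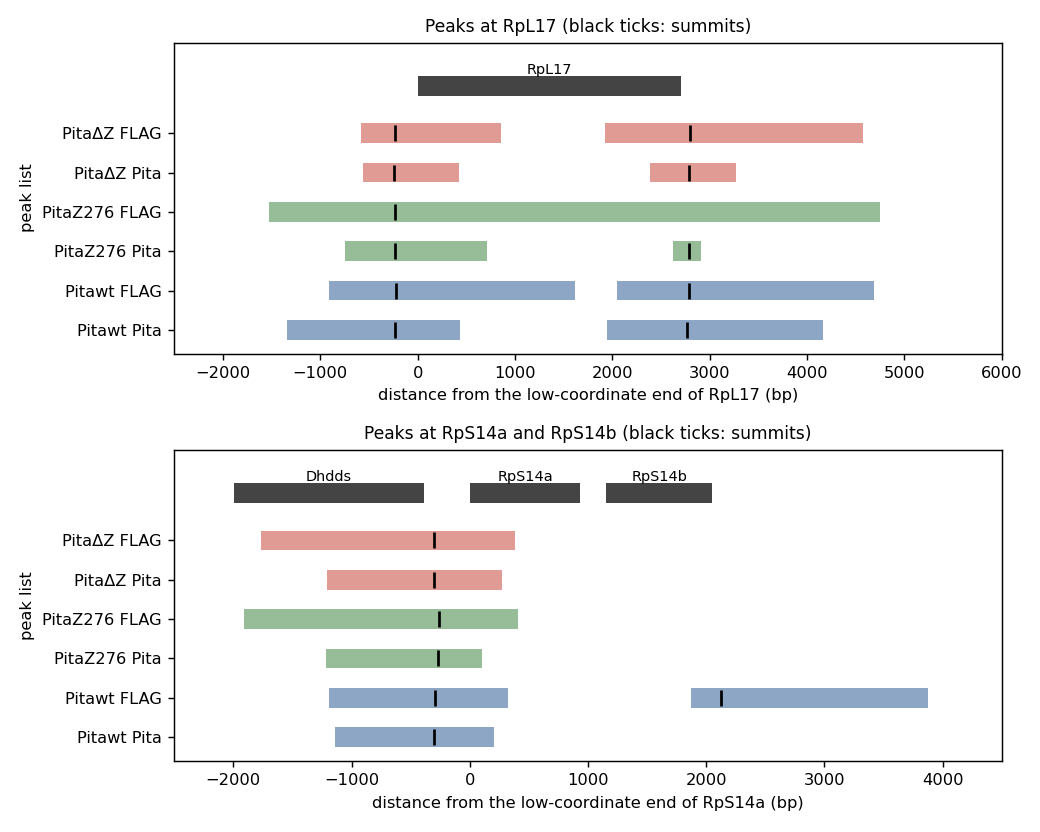
Peaks of the 6 lists at RpL17 and at RpS14a with RpS14b, plotted as distance from the low-coordinate end of RpL17 or RpS14a (bp); coloured bars are peaks, black ticks summits and dark bars the genes named on the map. PitaZ276 FLAG joins both sides of RpL17 in a single peak of 6280 bp, and only Pitawt FLAG has a peak beyond RpS14b.

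The position of these sites was nearly the same in all lists. For the 12 genes, the summits of the 6 lists fell within 16 bp of each other at RpL17 and RpL23, 23 bp at RpS15Aa, and at most 72 bp, at RpL37A. Of the 72 values (12 genes in 6 lists, by the strongest summit), 48 lay within 130 bp of the gene end. The lists repeat the same genes here, as each gene lay within that distance in all lists or in none. This split depends on the limit, as RpL13A and RpL22 reached 128 bp and a slightly lower limit would part their lists. RpL17 was among those in none, although its other summit lay 70 to 98 bp away. The share for summits at other gene ends was not computed. Summits mostly lay outside the gene. Those inside numbered 2 of 19 sites in PitaΔZ FLAG, 0 of 23 in PitaΔZ Pita, 6 of 26 in PitaZ276 FLAG, 1 of 14 in PitaZ276 Pita, 3 of 26 in Pitawt FLAG and 3 of 21 in Pitawt Pita. The share inside was not computed for summits at other genes, so lying outside is not read as particular to these genes. Between the joined lists the summit at these sites moved by a median of 8.0 bp in PitaΔZ FLAG, 21.0 bp in PitaZ276 FLAG and 8.5 bp in Pitawt FLAG, against 11, 30 and 14 bp over all peaks of those lists.

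**Figure D4:**
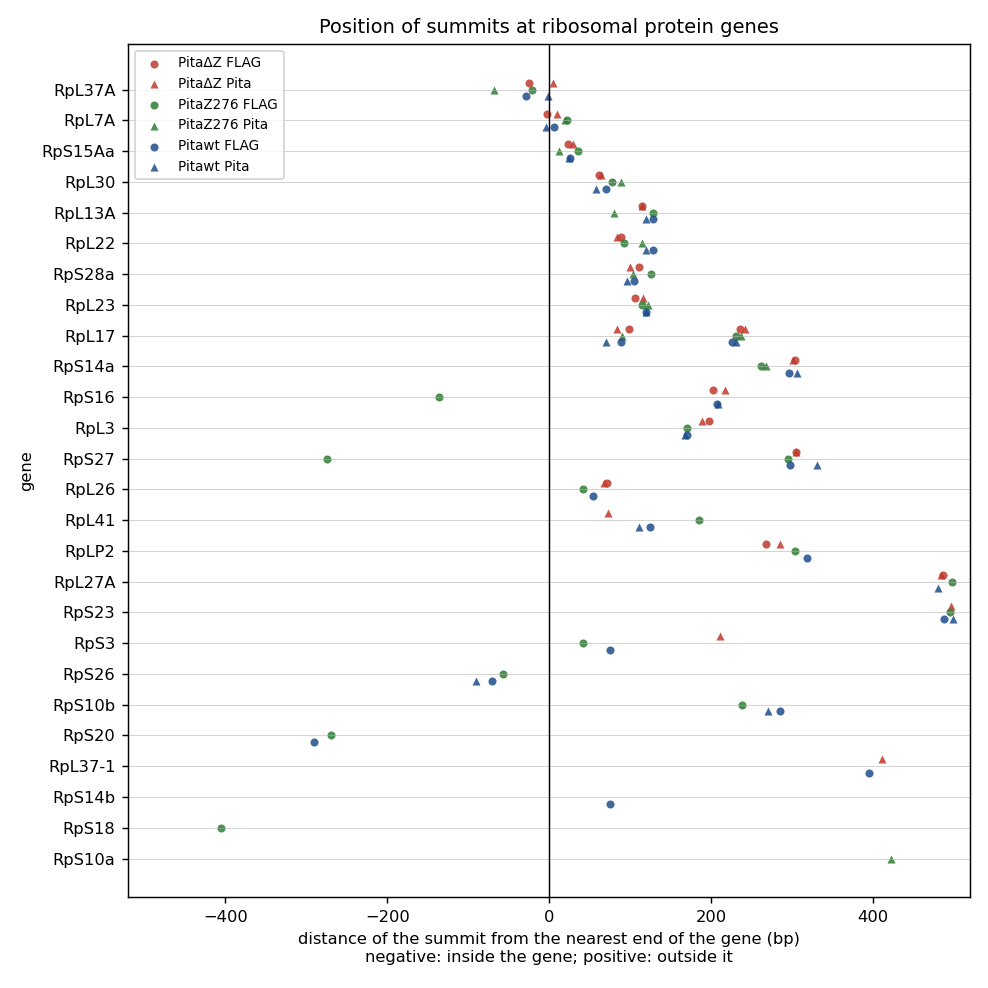
Distance (bp) of each summit from the nearest end of the ribosomal protein gene, negative inside the gene and positive outside it; circles are FLAG lists, triangles Pita lists, and colours the 3 lines. The 10 upper genes are reached in all lists, and their summits keep their place between lists, as at RpS15Aa (12 to 35 bp) and RpS14a (261 to 306 bp).

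The fold at ribosomal protein genes was also placed within its own list as a percentile, where 50 would be the middle of the list. In PitaΔZ FLAG the median percentile was 79.3 (nominal 95% interval 64.9 to 87.8), against 55.7 for all peaks near a gene end. In PitaZ276 FLAG it was 66.7 (53.8 to 88.9), against 58.0, and in Pitawt FLAG 76.3 (50.4 to 91.5), against 57.7. In PitaZ276 FLAG and Pitawt FLAG the interval held the value of all peaks near a gene end. The intervals take sites as units, with RpL17 counted more than once in most lists, so they are no test against that value. With the Pita antibody the median was 76.3 (67.6 to 83.4) in PitaΔZ, against 56.7, and 69.0 (55.2 to 78.7) in PitaZ276, against 51.0. In Pitawt it was 75.9 (58.0 to 87.0), against 56.0. All these intervals run between ranked values and cover somewhat less than 95%. A start at the next lower ranked value would be 38.3 in PitaZ276 Pita and 35.9 in Pitawt Pita, below the values of all peaks near a gene end. The spread was wide, with folds of 11.8 to 159 in PitaΔZ FLAG, 2.77 to 66.4 in PitaZ276 FLAG and 4.85 to 79.2 in Pitawt FLAG.

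The other reached genes had lower folds than most of the 12, at 11.8 to 46.0 in PitaΔZ FLAG, 2.77 to 17.0 in PitaZ276 FLAG and 4.85 to 24.4 in Pitawt FLAG, against 37.2 to 159, 14.0 to 66.4 and 21.1 to 79.2 for the 12. The 12 were defined by a call in every list, so this contrast can follow from how they were chosen. RpL3, a protein at the peptidyl transferase centre, was found in every list but PitaZ276 Pita, with FLAG folds of 46.0 in PitaΔZ, 17.0 in PitaZ276 and 24.4 in Pitawt. RpS27 and RpS16 were absent from the same list. RpS27 had FLAG folds of 33.1 in PitaΔZ, 13.7 in PitaZ276 and 10.6 in Pitawt. RpS16, whose tail reaches the decoding site, had 19.2 in PitaΔZ, 11.0 in PitaZ276 and 7.85 in Pitawt. The summits named for RpL3 lay nearer to CG6693 in all 5 lists. Those for RpS16 lay nearer to Vps20, an ESCRT-III gene, in both PitaΔZ and both Pitawt lists (2R, 22608197 to 22608212). In PitaZ276 FLAG the RpS16 summit (2R, 22607859) lay inside the gene, and the second joined list put it 348 bp from there. The RpS16 folds may thus not all come from the same position.

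Several absences fell at the 500 bp limit. RpL27A was found in both PitaΔZ lists, PitaZ276 FLAG and Pitawt Pita at 480 to 497 bp, inside mRpL27, a mitochondrial ribosomal protein gene, with FLAG folds of 41.0 in PitaΔZ and 16.7 in PitaZ276, while its Pitawt FLAG summit (fold 20.7) lay at 504 bp. RpS23, a protein of the decoding centre, was found in 4 lists at 487 to 498 bp, with folds of 26.5 in PitaΔZ Pita, 12.9 in PitaZ276 FLAG and 21.5 in Pitawt FLAG, while its PitaΔZ FLAG summit (fold 36.7) lay at 503 bp. RpS10a was reached only in PitaZ276 Pita, at 422 bp. The second joined list there put the summit 854 bp from RpS10a, beyond the limit. In the other 5 lists the RpS10a summit lay at 770 to 840 bp, inside tau, with folds of 30.4 in PitaΔZ FLAG, 23.7 in PitaZ276 FLAG and 42.5 in Pitawt FLAG. RpS15 missed the limit in all lists, although summits of 5 lists lay 580 to 603 bp away and had folds of 41.9 in PitaΔZ FLAG, 10.4 in PitaZ276 FLAG and 19.5 in Pitawt FLAG.

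Of the 25 genes reached in Pitawt FLAG, 17 (68%) were reached in PitaΔZ FLAG, against 49.2% of all genes reached in Pitawt FLAG. In PitaZ276 FLAG 23 of the 25 (92%) were reached, against 70.2% of all such genes. Those not reached in PitaΔZ FLAG numbered 8 (32%), with Pitawt FLAG folds of 4.85 to 21.5, and RpS23, at the 500 bp limit, has the highest of these. The 17 reached had Pitawt FLAG folds of 7.85 to 79.2. The 2 not reached in PitaZ276 FLAG were RpL37-1 and RpS14b, with Pitawt FLAG folds of 7.33 and 7.87. With every list cut to the same number of strongest peaks, Pitawt FLAG reached 14 genes. Of these, 13 were reached in PitaΔZ FLAG and 13 in PitaZ276 FLAG. The contrast between 68% and 92% was thus not present at equal list length. The matching share of all genes was not computed at that length. All these lists share the preimmune control and, when uncut, differ in length, so no difference in binding is read from these counts.

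RpS26 and RpS10b were reached with both antibodies in Pitawt and with neither in PitaΔZ. RpS26, beside the exit of the messenger RNA channel, had no PitaΔZ summit nearer than 11390 bp, a fold of 6.31 in PitaZ276 FLAG, and 14.1 and 7.83 with FLAG and Pita in Pitawt. Its summits lay inside the gene, 57 to 91 bp from the high-coordinate end. RpS10b had no PitaΔZ summit nearer than 38660 bp, a fold of 11.6 in PitaZ276 FLAG, and 12.8 and 9.42 with FLAG and Pita in Pitawt. With every list cut to its strongest 492 peaks, neither gene was reached in any FLAG or Pita list, so this contrast between lines was not present at equal list length. RpL26 and the stalk gene RpLP2 were reached with both antibodies in PitaΔZ but with FLAG alone in the other lines. RpL26 had folds of 12.3 and 9.96 with FLAG and Pita in PitaΔZ, 9.78 in PitaZ276 FLAG and 8.36 in Pitawt FLAG. RpLP2 had 11.8 and 7.66 in PitaΔZ, 7.04 in PitaZ276 FLAG and 9.44 in Pitawt FLAG, with the Cdk4 end also within 500 bp. At equal list length RpL26 was reached in PitaΔZ Pita alone and RpLP2 in no list.

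The genes that follow had folds near or below the middle of their lists. RpL41, which encodes a very short basic protein, had summits inside NaCP60E, a sodium channel gene. Its folds were 3.05 in PitaΔZ Pita, 4.19 in PitaZ276 FLAG, 10.7 in Pitawt FLAG and 6.57 in Pitawt Pita. It was thus reached with both antibodies in Pitawt alone, but at equal list length it was reached in no list. RpS3, at the entry of the messenger RNA channel, had 5.25 in PitaΔZ Pita, 8.00 in PitaZ276 FLAG and 4.85 in Pitawt FLAG, beside Sec13. RpS20 had 3.53 in PitaZ276 FLAG and 8.59 in Pitawt FLAG, at summits inside the gene. RpL37-1 had 5.00 in PitaΔZ Pita and 7.33 in Pitawt FLAG, nearer to drd. RpS18 had 2.77 in PitaZ276 FLAG alone, at rank 1228 of 1243.

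The order among the 12 genes found in all lists was compared by −log10 p in both joined lists of each line and antibody. The genes described here were chosen after their values were seen. RpL22 held place 1, 2 or 3 and RpL37A place 11 or 12 in each of the 12 orders. RpS15Aa was at place 10 and 10 of 12 in PitaΔZ FLAG, 8 and 10 in PitaZ276 FLAG, and 2 and 2 in Pitawt FLAG. With the Pita antibody it was at 11 and 11 in PitaΔZ, 4 and 8 in PitaZ276, and 3 and 6 in Pitawt. RpS28a was at place 1 in both joined lists of PitaΔZ FLAG and of PitaΔZ Pita. It stood at 5 and 7 in PitaZ276 FLAG, and at 5 and 4 in Pitawt FLAG. RpL17 was at place 1 in every PitaZ276 order, 9 and 9 in PitaΔZ FLAG and 6 and 5 in Pitawt FLAG. The orders of the joined lists were the same in PitaΔZ FLAG, while in PitaZ276 Pita RpS28a stood at places 5 and 10. The joined lists are not known to be separate libraries, so these orders have no replicate test.

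**Figure D5:**
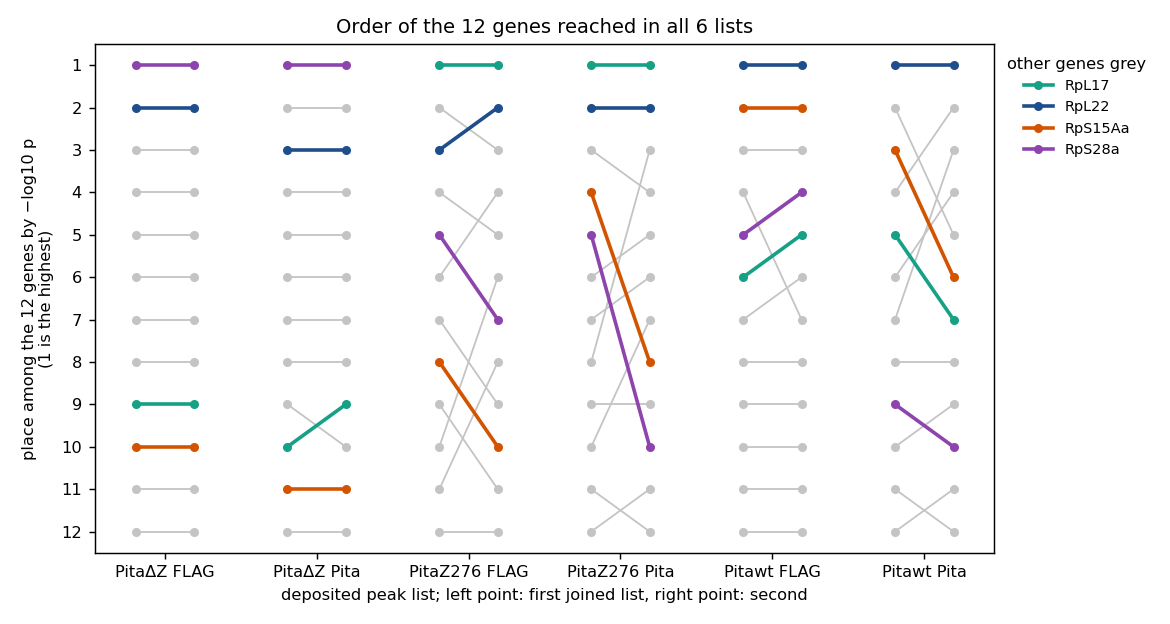
Place (1 is the highest −log10 p) of the 12 genes reached in all lists, in the first (left point) and second (right point) joined list of each line and antibody. RpS28a is at place 1 in PitaΔZ, RpL17 in PitaZ276 and RpL22 in Pitawt, while RpS15Aa is at place 10 in PitaΔZ FLAG and 2 in Pitawt FLAG.

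Of 14 pairs from a prepared list of duplicated and -like genes that matched the RefSeq table, 8 had neither gene reached. At least 1 list reached 5 of the 13 first genes and 3 of the 14 second genes of these pairs, against 30.1% of the 93 genes and 9.70% of all genes. RpS14a was reached in 6 lists and RpS14b, 220 bp farther along the X chromosome, in Pitawt FLAG alone, with a fold of 7.87 at a summit 29 bp from Ubr3. RpS15Aa and RpL22 were reached in 6 lists, and RpS15Ab and RpL22-like in none. For RpS28 it was RpS28a that was reached in 6 lists and RpS28b in none. RpS10b was reached in 3 lists and RpS10a in 1, and RpL37-1 in 2 lists and RpL37-2 in none.

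Genes on the X chromosome were reached in at least 1 list in 8 of 15 cases, against 11.3% of all X genes. On the other chromosomes the count was 20 of 78, against 9.41%. All lists reached 5 of the 15 on X (3.96% of all X genes) and 7 of the 78 elsewhere (2.07%). The unreached genes included sta, RpS6, RpL32, RpLP0 and RpS3A, the only one on chromosome 4. Among the 65, 6 had a summit between the 500 bp limit and 1000 bp in some list and 59 had none within 1000 bp.

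Other genes of ribosome assembly and translation were reached as well. Of 21 assembly genes matched, at least 1 list reached 4, against 9.70% of all genes. These were Fib, NHP2, Nop10 and a gene found in Pitawt FLAG alone, with a fold of 3.91. Fib, which encodes the methylase of box C/D RNPs, was reached in all lists, with FLAG folds of 50.5 in PitaΔZ, 22.9 in PitaZ276 and 39.9 in Pitawt. These FLAG summits lay 48 bp from a gene end in PitaΔZ, 66 bp in PitaZ276 and 398 bp in Pitawt. With the Pita antibody the distance was 58 bp in PitaΔZ and 408 bp in Pitawt, and in PitaZ276 it differed between antibodies. The Fib folds thus do not all come from the same position. NHP2 and Nop10, subunits of the pseudouridylation RNPs, were absent from PitaZ276 Pita alone. Nop10 had FLAG folds of 49.9 in PitaΔZ, 21.8 in PitaZ276 and 21.3 in Pitawt. Of 12 genes for translation machinery outside the ribosomal proteins, at least 1 list reached 4, against the same 9.70% of all genes. The elongation factor gene eEF2 was reached in all lists, with FLAG folds of 47.2 in PitaΔZ, 26.8 in PitaZ276 and 31.6 in Pitawt. The gene of the helicase eIF4A was absent from PitaZ276 Pita alone and had FLAG folds of 12.6 in PitaΔZ, 20.9 in PitaZ276 and 27.9 in Pitawt. Rack1, whose protein sits on the small subunit, had 3.06 in PitaΔZ Pita and 11.4 in Pitawt FLAG.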

How the data were processed

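Per the submitters' processing notes, the authors used cutadapt, Bowtie2, Picard, bedtools, MACS2 and deepTools with build dm6, and versions are not given in the sources used here. In all, 6 deposited lists were used, with 20 columns and no header. By layout and values, the authors' column 7 is a fold enrichment (a ratio), and columns 8, 9, 15 and 19 hold deposited −log10 p or q values. Column 12 was read as the −log10 of the global irreproducible discovery rate (IDR). Summits were column 2 plus column 10, which repeat the first joined list.

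Genes came from the RefSeq Release 6 table, which gives no strand or exon. No sequence was used, so the planned motif search and the alternative by gene start were not run. Values were computed with pandas 2.3.3, numpy 2.4.6 and scipy 1.17.1 in Python 3.11.15, and drawn with matplotlib 3.10.9. The distance search was tested on simulated data. Shares have exact Clopper-Pearson 95% intervals; depth is unknown. The 93 genes and all lists were chosen with earlier results of these data known. Named with values were genes in all lists or in the FLAG lists of at least 2 lines, and genes whose calls differed between lines with both antibodies. Other genes, and those at the 500 bp limit, were named after their values were seen. A few genes are counted but not named, drawn or reported singly here.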

Additional observations from a re-analysis of the deposited data

How the results depend on the processing

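Of 135 values recomputed under 9 alternatives, 115 stayed within set limits of those given (a count within 1.5 times, a median within its nominal 95% interval) and 20 moved. These limits are wide. A fall from 12 to 8 genes in all lists stayed within them, as did Pitawt FLAG medians of 66.5 (1000 bp window) and 85.7 (200 bp window). With a window of 200 bp the genes reached were 11 in PitaΔZ FLAG, 12 in PitaΔZ Pita, 14 in PitaZ276 FLAG, 15 in Pitawt FLAG and 12 in Pitawt Pita (11.8, 12.9, 15.1, 16.1 and 12.9%, against 2.66, 2.94, 3.42, 4.41 and 3.33% of all genes). In that window 16 genes were reached in at least 1 list, 11 with both antibodies in PitaΔZ, 12 with both in Pitawt, 11 in PitaΔZ FLAG and Pitawt FLAG together, and 13 in PitaZ276 FLAG and Pitawt FLAG together. With every list cut to its strongest 492 peaks, the count of 13 in PitaΔZ FLAG and Pitawt FLAG together stayed within the limits. The counts that moved were 14 in PitaZ276 FLAG, 14 in Pitawt FLAG and 13 in Pitawt Pita. Also moved were 12 with both antibodies in Pitawt and 13 in PitaZ276 FLAG and Pitawt FLAG together. With only the nearest gene counted they were 11 in PitaΔZ FLAG, 13 in PitaΔZ Pita, 16 in Pitawt FLAG (11.8, 14.0 and 17.2%, against 2.75, 3.08 and 5.64% of all genes), 11 with both antibodies in PitaΔZ and 11 in PitaΔZ FLAG and Pitawt FLAG together. For the counts that combine lists, the share of all genes under these alternatives was not computed, so they are not read alone. These 3 alternatives can only take genes away. Over the 9 alternatives the genes in all lists numbered 8 to 13. The 8 in all lists at 200 bp did not include RpL17 or RpS14a, and the 8 by nearest gene did not include RpL22, RpS14a or RpS28a. With a −log10 IDR of at least 2, RpS10b was no longer reached in Pitawt Pita. The genes in all lists then numbered 9, as RpL13A, RpL37A and RpS28a were no longer reached in PitaZ276 Pita. At equal list length the share of ribosomal protein genes was 17.2% in PitaΔZ FLAG, 15.1% in PitaZ276 FLAG and 15.1% in Pitawt FLAG, against 3.45%, 3.42% and 3.19% of all genes. In Pitawt Pita it was 14%, against 2.88%. The summit of the second joined list and any overlap of the peak were chosen after seeing the data. No paired analysis was possible because each line and antibody has a single joined list, with no values for single libraries, and for the same reason no library could be left out. Depth is unknown, so a gene without a peak was not detectably bound in these lists, not shown to be unbound.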
